A study of Mus musculus with 8 samples.

Results

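The myeloid priming genes described here are 9 genes that mark the turn of a blood progenitor towards granulocytes and monocytes. They are the primary granule genes Mpo, Elane, Prtn3 and Ctsg, the granulocyte-monocyte progenitor gene Ms4a3, and the transcription factor genes Cebpa, Cebpb, Cebpe and Spi1. The members were chosen by symbol from the authors' deposited annotated table, and all 9 were found among its 30918 genes, each with 1 probe set. RNA came from multipotent progenitors, sorted as LSK CD48- CD150- cells from c-Kit enriched bone marrow of untreated mice on a C57Bl/6 background, and was measured on Affymetrix arrays. The 4 Elektra samples came from mice homozygous for the elektra allele of Slfn2 (Slfn2 elektra/elektra), a loss-of-function allele, and the 4 wild-type (WT) samples from littermates homozygous for the normal allele (Slfn2 wt/wt). Each sample pooled bones of 2 mice of 1 genotype, per the labels, and no age is given in the sources used here. Slfn2 belongs to the Schlafen family and helps T cells and monocytes stay at rest. The design sets Elektra against WT, and the question followed here is whether the myeloid genes of these progenitors differ with the genotype.

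Neutrophil precursors make their granules in a fixed order. Primary, or azurophil, granules are filled at the promyelocyte stage with myeloperoxidase and with serine proteases that are stored in active form, and later granules are filled afterwards with other proteins such as lactoferrin. PU.1, the product of Spi1, and the C/EBP proteins are DNA-binding factors that switch on this programme, PU.1 and C/EBPalpha early and C/EBPepsilon late. Uncommitted progenitors are known to carry low levels of such transcripts before they commit, which is called priming. In RNA from sorted cells, fewer cells carrying a transcript and less of it per cell cannot be told apart.

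The promoters of the 5 granule and progenitor genes are shown because these genes varied together or apart between arrays, as described further on. Of the 9 members, 7 had a promoter in the RefSeq table (build GRCm38.p6), each reaching from 250 bases before the gene's start to 50 after it. They are written 5′ to 3′ on the gene's strand. Capitals mark the letters GAGGAA, the core that PU.1 binds, and TTGCNNAA, a core of C/EBP sites, searched on both strands. In Ms4a3 a match of each core lies side by side in 1 run of capitals, without overlap. Both lie after the gene's start, within the last 50 bases shown. The matches in Mpo, Elane, Prtn3 and Ctsg lie before the start.
Mpo, chr11:87793534-87793833, plus strand: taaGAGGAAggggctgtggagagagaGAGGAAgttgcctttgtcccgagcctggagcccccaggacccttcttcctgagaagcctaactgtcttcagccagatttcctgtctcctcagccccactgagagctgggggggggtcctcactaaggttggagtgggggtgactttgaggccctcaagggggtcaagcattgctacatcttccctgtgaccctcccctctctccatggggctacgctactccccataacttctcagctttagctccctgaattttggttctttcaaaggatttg
Elane, chr10:79886062-79886361, plus strand: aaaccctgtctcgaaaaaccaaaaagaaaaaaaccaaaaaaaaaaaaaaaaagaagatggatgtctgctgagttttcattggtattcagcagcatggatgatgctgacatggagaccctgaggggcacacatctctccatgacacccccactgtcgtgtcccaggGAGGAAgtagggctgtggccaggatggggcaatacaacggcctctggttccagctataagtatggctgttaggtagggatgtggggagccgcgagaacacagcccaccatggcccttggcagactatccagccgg
Prtn3, chr10:79879417-79879716, plus strand: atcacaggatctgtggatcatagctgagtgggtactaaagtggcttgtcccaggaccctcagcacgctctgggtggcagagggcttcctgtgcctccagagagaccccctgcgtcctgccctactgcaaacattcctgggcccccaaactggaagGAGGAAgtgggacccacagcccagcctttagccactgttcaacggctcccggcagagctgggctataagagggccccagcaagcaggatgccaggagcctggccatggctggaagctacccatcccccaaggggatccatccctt
Ctsg, chr14:56102525-56102824, minus strand: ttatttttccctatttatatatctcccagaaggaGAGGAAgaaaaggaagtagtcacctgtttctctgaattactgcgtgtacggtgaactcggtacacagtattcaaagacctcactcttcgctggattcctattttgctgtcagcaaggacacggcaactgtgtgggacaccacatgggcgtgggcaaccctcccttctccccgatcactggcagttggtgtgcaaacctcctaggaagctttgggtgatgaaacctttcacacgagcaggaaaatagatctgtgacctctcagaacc
Ms4a3, chr19:11640802-11641101, minus strand: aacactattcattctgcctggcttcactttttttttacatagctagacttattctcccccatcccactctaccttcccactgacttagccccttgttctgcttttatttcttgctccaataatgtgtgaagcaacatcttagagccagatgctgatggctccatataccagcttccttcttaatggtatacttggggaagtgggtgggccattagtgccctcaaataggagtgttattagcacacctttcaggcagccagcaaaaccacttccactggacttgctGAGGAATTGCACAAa

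GAGGAA was found in all 5 of these promoters and in neither of the other 2 members' promoters, those of Cebpa and Cebpb. It occurs in 28.3% of the 32851 promoters of this length in the table. TTGCNNAA was found in 1 of the 5, that of Ms4a3, against 10.8% of all promoters. The cores were chosen after these promoters had been seen, and a match describes the letters only.

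Values are log2 intensities as the authors deposited them, so that a difference of 1 is a doubling of signal. The medians of the arrays ranged from 2.02 to 2.13, and their pairwise correlation was at least 0.966. Elektra replicate 2 had the narrowest spread of values, its quartiles being 1.43 and 3.63, where the remaining arrays had lower quartiles of 1.32 to 1.36 and upper quartiles of 3.80 to 3.83. The transcript of Slfn2 was at 2.10 ± 0.08 in Elektra and 2.08 ± 0.31 in WT (SD, n = 4 each). Since the allele alters the coding sequence, the level says nothing of the genotype. Of the markers the gate requires, Kit (8.97 ± 0.13 in Elektra, 9.16 ± 0.09 in WT) and Ly6a (9.27 ± 0.16 and 8.91 ± 0.36) both lay at the 99.6 percentile of genes by level. Cd34, a progenitor antigen outside this gate, was at 8.40 ± 0.06 in Elektra and 8.43 ± 0.18 in WT. Of the markers the gate excludes, Slamf1, which encodes CD150, was at 1.80 ± 0.35 in Elektra and 1.66 ± 0.34 in WT. Cd48 was at 4.01 ± 0.16 and 3.85 ± 0.36. By level Slamf1 lay at the 39.0 percentile of genes and Cd48 at the 75.4 percentile, so the Cd48 signal was not low. Slfn2 and these 5 marker genes did not pass the test between genotypes.

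None of the 9 myeloid genes differed between genotypes beyond the spread of replicates. By limma with Benjamini-Hochberg adjustment over all genes, 0 of 9 members passed an adjusted p of 0.05, and by the same rule 0% of all 30918 genes did. At an unadjusted p under 0.05 the count was again 0 of 9 members, against 5.5% of all genes, 2.63% higher and 2.87% lower in Elektra. The values of the 4 Elektra arrays overlapped those of the 4 WT arrays for every one of the 9, whereas they were separate for 3.23% of all genes. In log2 change 6 members were above 0 and 3 below, with a median of 0.13, while 53.9% of all genes were above 0 and their median was 0.01. In the authors' deposited table the p-values of the 9 members lay between 0.181 (Prtn3) and 0.618 (Cebpa).

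**Figure D1:**
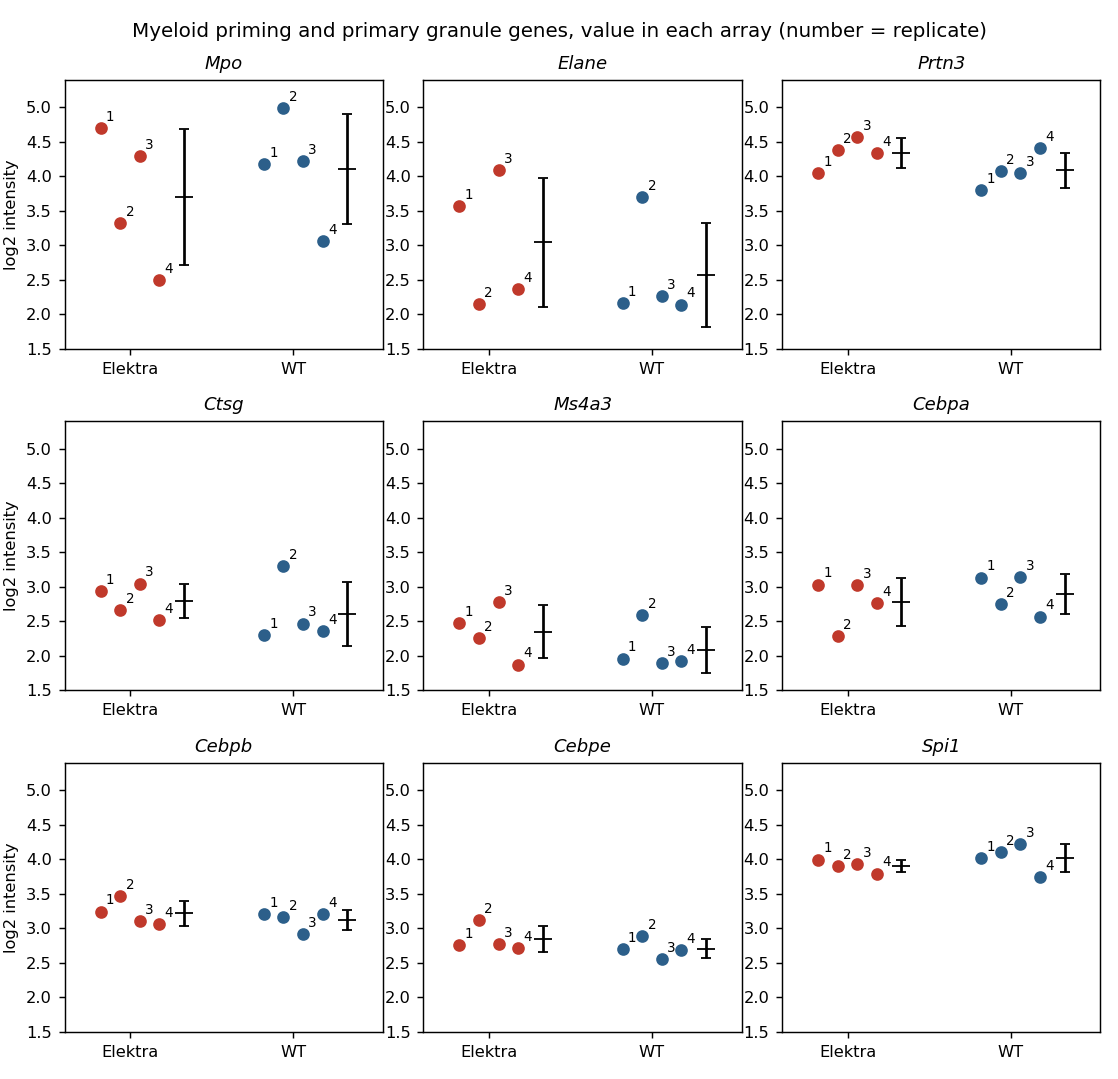
Log2 intensity of each of the 9 genes (y axis) in the 4 Elektra arrays (red) and the 4 WT arrays (blue), with the replicate number beside each point and the mean ± SD as a black bar. Mpo spans 2.50 to 4.99 and Elane 2.14 to 4.09, and the genotypes overlap in all 9 panels.

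Mpo encodes myeloperoxidase, the haem enzyme of primary granules that makes hypochlorous acid. Its log2 intensity was 4.69, 3.32, 4.29 and 2.50 in Elektra replicates 1 to 4, and 4.18, 4.99, 4.23 and 3.06 in WT replicates 1 to 4. The lowest value was in Elektra replicate 4 and the next lowest in WT replicate 4, and the highest was in WT replicate 2. The difference was -0.41 (SE 0.50, 95% interval -1.52 to 0.70, limma adjusted p = 0.919). It shrank to -0.01 without Elektra replicate 4 and widened to -0.76 without WT replicate 4.

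Elane encodes neutrophil elastase, and its values fell into 2 separate clusters of arrays. It was 3.57, 2.15, 4.09 and 2.37 in Elektra replicates 1 to 4, and 2.17, 3.70, 2.27 and 2.14 in WT replicates 1 to 4. Elektra replicates 1 and 3 and WT replicate 2 were high and the other 5 arrays were low, with a gap of 1.20 between the clusters within a whole range of 1.95. Both clusters held arrays of both genotypes. The 5 low arrays, at 2.14 to 2.37, lay close to the array medians of 2.02 to 2.13, and a background level was not estimated. By mean level Elane was at the 62.8 percentile of genes. The difference between genotypes was 0.48 (SE 0.47, 95% interval -0.58 to 1.53, limma adjusted p = 0.909). It lay between 0.13 (without Elektra replicate 3) and 0.85 (without WT replicate 2) on leaving out each array.

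Ctsg, which encodes cathepsin G, and Ms4a3, a membrane protein gene of granulocyte-monocyte progenitors known to restrain the cell cycle, followed the same 3 arrays over a narrower range. Ctsg was 2.94, 2.66, 3.05 and 2.52 in Elektra replicates 1 to 4, and 2.31, 3.30, 2.47 and 2.36 in WT replicates 1 to 4. Ms4a3 was 2.48, 2.26, 2.78 and 1.87 in Elektra, and 1.96, 2.59, 1.89 and 1.92 in WT, in the same order. By mean level Ctsg lay at the 61.2 and Ms4a3 at the 52.6 percentile of genes. Ms4a3 was under the array medians (2.02 to 2.13) in Elektra replicate 4 and in WT replicates 1, 3 and 4. In WT both genes were high in replicate 2 alone, while in Elektra they were highest in replicates 3 and 1, with replicate 2 next. The differences between genotypes were 0.19 (SE 0.22, limma adjusted p = 0.918) for Ctsg and 0.26 (SE 0.21, 0.898) for Ms4a3. Without WT replicate 2 they were 0.41 and 0.42, and that of Ctsg then had an unadjusted limma p of 0.0187 (adjusted p = 0.964).

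Prtn3 encodes proteinase 3, a close relative of elastase, and is the next gene to Elane on chromosome 10, with 0 annotated genes between them in the RefSeq table. It did not follow the 3 arrays in which Elane was high. Prtn3 was 4.05, 4.38, 4.57 and 4.34 in Elektra replicates 1 to 4, and 3.80, 4.08, 4.05 and 4.41 in WT replicates 1 to 4. Its 3 highest arrays were Elektra replicate 3, WT replicate 4 and Elektra replicate 2, and its whole range was 0.77, against 1.95 for Elane. Its difference between genotypes, 0.25 (SE 0.15, 95% interval -0.09 to 0.58), had the smallest p of the 9 members (limma unadjusted p = 0.129, adjusted p = 0.888). The unadjusted limma p was 0.0475 without Elektra replicate 1 and 0.033 without WT replicate 4, with adjusted p-values of 0.725 and 0.945.

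Elektra replicates 1 and 3 and WT replicate 2 were thus the 3 highest arrays for 4 of the 5 granule and progenitor genes, namely Mpo, Elane, Ctsg and Ms4a3. This count was also 4 with the series table's values, after quantile normalisation and after median centring. For Mpo the third place was close, at 4.29 in Elektra replicate 3 against 4.23 in WT replicate 3. Mpo did not fall into separate clusters of arrays as Elane did. The pattern was noticed in these values, so it is given as a description. The share of all genes with the same 3 highest arrays was not computed. The spread between arrays of 1 genotype set Mpo and Elane apart from the other members. Their SD within genotype was 0.90 and 0.85 log2 units, at the 99.6 percentile of all genes for both. Ctsg (0.37) and Ms4a3 (0.36) lay at the 91.6 and 90.7 percentiles of that spread, and Prtn3 (0.23) at the 67.9 percentile.

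**Figure D2:**
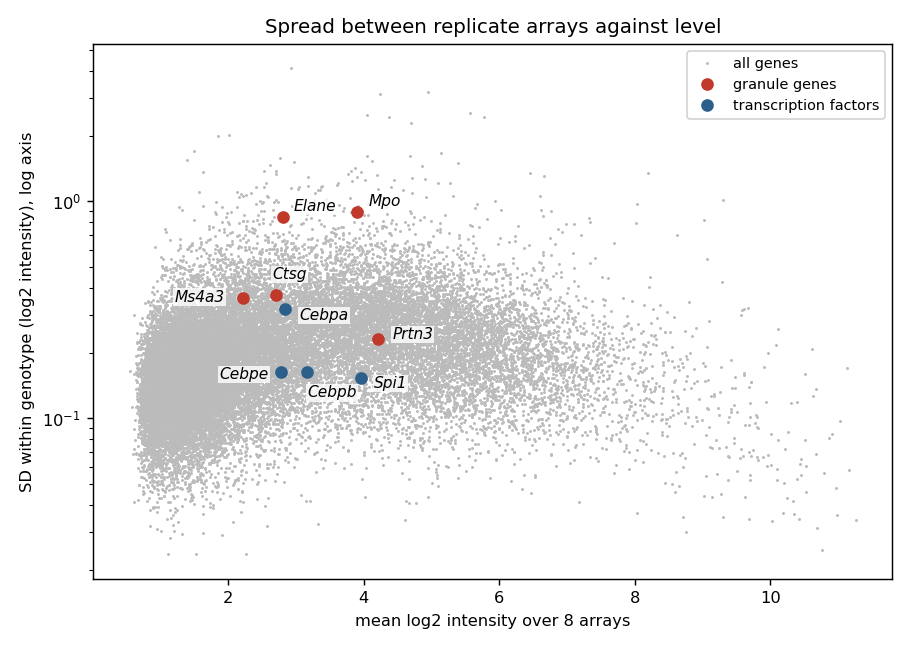
SD between arrays of the same genotype (y axis, log2 intensity, log axis) against the mean log2 intensity over 8 arrays (x axis) for all genes in grey, the 5 granule and progenitor genes in red and the 4 transcription factor genes in blue. Mpo (0.90) and Elane (0.85) lie above nearly all genes. Cebpa (0.32) lies between Ms4a3 (0.36) and Prtn3 (0.23), and Cebpb (0.16), Cebpe (0.16) and Spi1 (0.15) lie lower.

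Among the transcription factor genes, Cebpa had a within-genotype SD of 0.32 (86.3 percentile), above that of Prtn3, and Cebpb (0.16), Cebpe (0.16) and Spi1 (0.15) had smaller ones. Spi1, which encodes PU.1, was 4.00, 3.91, 3.93 and 3.79 in Elektra replicates 1 to 4, and 4.01, 4.10, 4.21 and 3.74 in WT replicates 1 to 4. Its whole range was 0.47, the smallest of the 9, and WT replicate 4 and Elektra replicate 4 were lowest, the arrays in which Mpo was also lowest. The difference was -0.11 (SE 0.12, 95% interval -0.37 to 0.15, limma adjusted p = 0.911).

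Cebpa, the gene of the C/EBP factor needed to form granulocyte-monocyte progenitors, was 3.03, 2.29, 3.03 and 2.76 in Elektra replicates 1 to 4, and 3.14, 2.75, 3.14 and 2.57 in WT replicates 1 to 4. Elektra replicate 2, the array with the narrow spread of values, was the lowest. The difference of -0.12 (SE 0.19, 95% interval -0.55 to 0.31, limma adjusted p = 0.943) turned to 0.04 without that array. The same array was the highest for Cebpb, the C/EBP gene of emergency granulopoiesis, and for Cebpe, the C/EBP gene of the late granule stage. Cebpb was 3.24, 3.47, 3.10 and 3.06 in Elektra and 3.21, 3.16, 2.91 and 3.20 in WT. Cebpe was 2.76, 3.12, 2.77 and 2.72 in Elektra and 2.70, 2.89, 2.56 and 2.68 in WT. Their differences were 0.10 (SE 0.12, limma adjusted p = 0.922) for Cebpb and 0.13 (SE 0.12, 0.901) for Cebpe, or 0.01 and 0.04 without Elektra replicate 2.

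**Figure D3:**
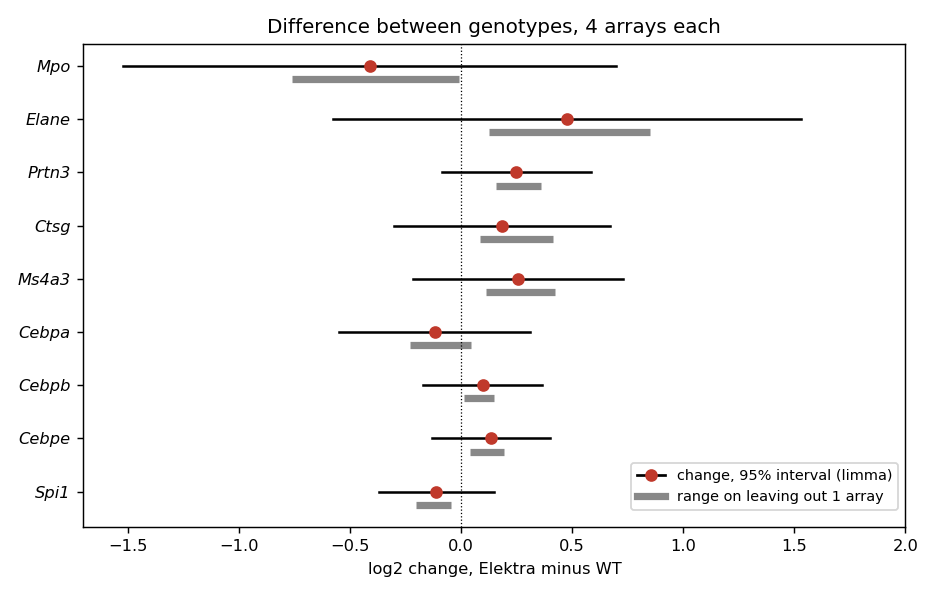
Log2 change of each gene, Elektra minus WT (x axis), as a red point with its 95% interval from limma as a black line, and in grey the range of the change on leaving out each of the 8 arrays. All 9 intervals hold 0, and that of Mpo is the widest at -1.52 to 0.70.

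How the members varied together was read from correlations over the 8 arrays. Of the 36 pairs, the 8 with Elane were left without a coefficient because its arrays form separate clusters, and 28 were tested by exact permutation of the pairings, two-sided, with Benjamini-Hochberg adjustment over the 28. None of the 28 passed an adjusted p of 0.05. This does not cover Elane, which was high in the same 3 arrays as Ctsg and Ms4a3. Among the 28 pairs, the closest by Pearson's r was Ctsg with Ms4a3, with r = 0.909 (exact p = 0.003, adjusted p = 0.084). Its Spearman rho was 0.738 (exact p = 0.0458, adjusted p = 0.299). Without the 2 arrays farthest from the median of Ctsg, r was 0.890. On deviations from the genotype means r was 0.905, with a permutation adjusted p of 0.0285. Those deviations sum to 0 within each genotype, and the permutation shuffled them across genotypes. It is therefore not a fair test, and that p is not relied on. By Spearman's rho the closest of the 28 were Mpo with Ms4a3 and Ctsg with Cebpe. Both had rho = 0.762 (exact p = 0.0368, adjusted p = 0.299). Their Pearson r was 0.632 for Mpo with Ms4a3 (exact p = 0.0963, adjusted p = 0.353), or 0.380 without the 2 arrays farthest from the median of Mpo. It was 0.400 for Ctsg with Cebpe (exact p = 0.340, adjusted p = 0.653), or 0.396 without the 2 farthest from the median of Ctsg.

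Cebpb with Cebpe had r = 0.837 (exact p = 0.0175, adjusted p = 0.230; rho = 0.476, exact p = 0.243, adjusted p = 0.619), but r was -0.09 without Elektra replicate 2 and WT replicate 3, so the relation rests on those arrays. Mpo with Spi1 had r = 0.771 (exact p = 0.0259, adjusted p = 0.230; rho = 0.714, exact p = 0.0576, adjusted p = 0.299), with 0.446 left after taking out replicate 4 of each genotype. Cebpa ran against Cebpe, with r = -0.742 (exact p = 0.0328, adjusted p = 0.230; rho = -0.571, exact p = 0.151, adjusted p = 0.423) and -0.662 without the 2 farthest arrays. Prtn3 with Ctsg had r = 0.167 (exact p = 0.692, adjusted p = 0.881; rho = 0.286, exact p = 0.501, adjusted p = 0.779).

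Late granule and mature neutrophil genes shared some high arrays with the primary granule genes and differed in others. The list held 19 genes, all measured, of which 0 passed the adjusted test. Of the 19, 8 lay higher and 11 lower in Elektra (median log2 change -0.06), where 53.9% of all genes were higher. At an unadjusted limma p under 0.05 there was 1 gene of the 19, Cybb, against 5.5% of all genes. Cybb encodes the catalytic subunit of the phagocyte oxidase (2.30 ± 0.40 in Elektra and 1.76 ± 0.23 in WT, limma adjusted p = 0.884). Ngp, a cathelicidin-like gene of the later granules, was 5.58, 3.47, 3.45 and 6.12 in Elektra replicates 1 to 4, and 5.16, 7.06, 3.03 and 3.61 in WT replicates 1 to 4. Elektra replicate 4, in which Mpo and Ms4a3 were at their lowest, thus had the second highest value of Ngp, and Elektra replicate 3, in which Elane and Ms4a3 peaked, had one of the lowest. The lactoferrin gene Ltf, the cathelicidin gene Camp, the lipocalin gene Lcn2 and the calprotectin genes S100a8 and S100a9 were picked out after their values were seen. Averaged with Ngp as deviations from each gene's mean, they stood at 0.34, -0.86, -0.65 and 0.96 in Elektra replicates 1 to 4, and at 0.28, 1.69, -1.02 and -0.75 in WT replicates 1 to 4. Other genes of the list did not all follow this average. In Elektra replicate 2 Mmp8 was at 0.44 and Cybb at 0.57, and in WT replicate 2 they were at -0.10 and -0.31. Fcnb went with the average, at -0.44 and 0.58 in those arrays. Averaged in the same way, Elane, Ctsg and Ms4a3 stood at 0.42, -0.22, 0.73 and -0.32 in Elektra, and -0.43, 0.62, -0.37 and -0.43 in WT. WT replicate 2 was high in both averages. Mpo and Prtn3 were left out of the second. With them it was 0.38, -0.22, 0.59 and -0.45 in Elektra, and -0.29, 0.56, -0.19 and -0.39 in WT. Prtn3 alone was below its mean in Elektra replicate 1 (-0.16) and WT replicate 2 (-0.14).

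**Figure D4:**
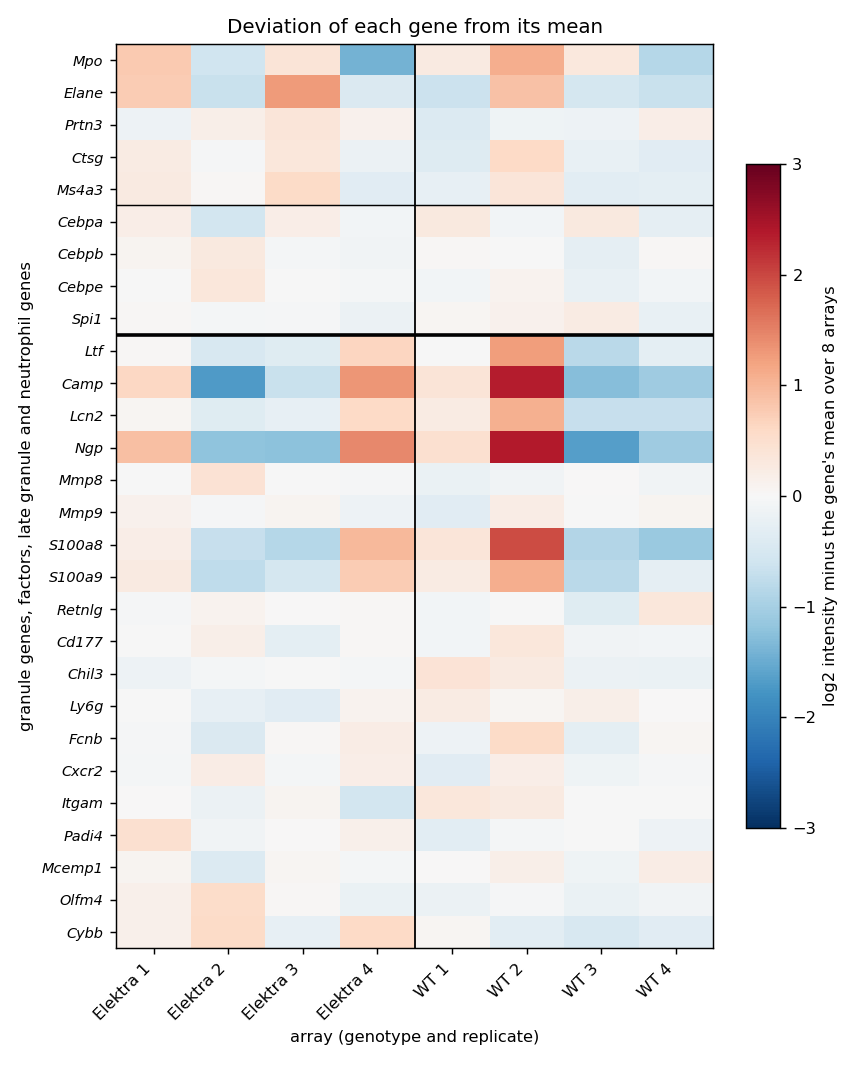
Deviation of each gene's log2 intensity from its mean over 8 arrays (colour, red above and blue below), with the 4 Elektra arrays left of the 4 WT arrays. Rows run from the 5 granule and progenitor genes through the 4 transcription factor genes to the 19 late granule and neutrophil genes; Ngp peaks in WT replicate 2 (7.06) and Elektra replicate 4 (6.12), Elane in Elektra replicate 3 (4.09).

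The mean level of the whole late list ranged from 2.39 to 2.95 over the Elektra arrays and from 2.22 to 3.25 over the WT arrays, and 5 of its 19 genes lay under the 40th percentile of all genes by level, Ly6g, the granulocyte marker of lineage antibodies, among them. Its highest array was WT replicate 2. The part of mature neutrophil RNA in the high Elane, Ctsg and Ms4a3 of that array was not tested. Elektra replicate 3, the array highest in Elane, had a late-list mean of 2.39. Monocyte and macrophage markers had a mean level of 2.20 to 2.61 in Elektra and 2.28 to 2.49 in WT, and mast cell, basophil and eosinophil markers 1.43 to 1.63 in Elektra and 1.35 to 1.51 in WT, with 8 of these 10 genes under the 40th percentile. In Elektra and WT, in that order, B cell and plasma cell markers were at 2.47 to 2.71 and 2.43 to 2.62, lymphoid priming markers at 3.05 to 3.16 and 3.14 to 3.27, and megakaryocyte and erythroid markers at 3.51 to 3.87 and 3.62 to 3.80. None of the genes of these 5 lists passed the adjusted test by limma. At an unadjusted p under 0.05 there were 2 of 8 lymphoid priming markers, both lower in Elektra, and 3 of 13 megakaryocyte and erythroid markers, 1 higher and 2 lower, against 2.63% higher and 2.87% lower among all genes. The other 3 lists had 0 at that p.

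Other genes of the early myeloid programme did not pass either. Beside the counts that follow, 53.9% of all genes were higher in Elektra. Of 12 genes for azurophil granule cargo and granule handling, 7 were higher and 5 lower in Elektra (median log2 change 0.09), and 0 passed. Ctsc, which encodes the protease that activates elastase, proteinase 3 and cathepsin G, was 5.01 ± 0.05 in Elektra and 4.74 ± 0.24 in WT, and had the smallest p of this list (limma unadjusted p = 0.0577, adjusted p = 0.884). Lyst, the gene of granule size control, was 5.33 ± 0.44 and 5.69 ± 0.12. Of 15 granulocyte-monocyte progenitor genes, 11 were higher and 4 lower (median 0.08), and 0 passed. The G-CSF receptor gene Csf3r was 7.29 ± 0.15 in Elektra and 7.19 ± 0.19 in WT, Nkg7 was 6.46 ± 0.20 and 6.11 ± 0.32, and the sialic acid receptor gene Cd33 was 5.14 ± 0.37 and 4.78 ± 0.31. Clec12a, a myeloid lectin receptor gene, was dim at 1.65 ± 0.18 in Elektra and 1.32 ± 0.19 in WT. It was the only gene of these 15 at an unadjusted limma p under 0.05 (adjusted p = 0.884), against 5.5% of all genes.

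Among 6 relatives of the C/EBP and PU.1 factors, 4 were higher and 2 lower (median 0.06), and 0 passed. Cebpz, a ribosome assembly gene despite its name, was 6.42 ± 0.12 in Elektra and 6.63 ± 0.14 in WT. Cebpd, a C/EBP gene of inflammation, was 2.22 ± 0.34 and 2.12 ± 0.27. Of 19 regulators and partners of C/EBPalpha and PU.1, 9 were higher and 10 lower (median -0.01), and 0 passed, with 3 at an unadjusted p under 0.05, all of them higher in Elektra, against 2.63% of all genes in that direction. Those 3 were Id1, Egr2 and Rara, each with a limma adjusted p of 0.884. Id1, an inhibitor of helix-loop-helix factors, was 2.04 ± 0.14 in Elektra and 1.70 ± 0.19 in WT. Egr2, a macrophage-promoting zinc finger gene, was 2.61 ± 0.09 and 2.36 ± 0.11. Its genotypes did not overlap, as was so for 3.23% of all genes. Rara, the retinoic acid receptor gene of granulocyte maturation, was 2.79 ± 0.13 and 2.51 ± 0.20.

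A profile was taken as the mean of the centred values of the 5 granule and progenitor genes over the 8 arrays. The genes most like it were Smyd4 (Pearson r = 0.953), Btbd6 (0.948), Gm23099 (0.939), Pinx1 (0.935) and Asl (0.931). They were the top 5 of 15450 genes above the median level, of which 16 reached 0.9. The centred values were not scaled, so the profile weighs Mpo and Elane most. Prtn3 departed from it in Elektra replicate 1 and WT replicate 2, at -0.16 and -0.14 against 0.38 and 0.56. The arrays of that profile fall into separate clusters, Elektra replicates 1 and 3 and WT replicate 2 against the rest, so the coefficient ranks genes by likeness and is no test. Smyd4 was 3.37, 2.90, 3.32 and 2.57 in Elektra replicates 1 to 4, and 2.78, 3.31, 3.00 and 2.67 in WT replicates 1 to 4.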

How the data were processed

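Expression was measured in 4 Elektra and 4 WT samples, 1 array each, from 100 to 200 pg of RNA amplified by 12 cycles of PCR, per the labels. The submitters' processing notes name RMA and Affymetrix Expression Console 1.4 for the log2 values the authors deposited. How the annotated table's 34390 of 41345 probe sets were chosen is not stated there. The 2 deposited tables differ by a median of 0.0607. The authors' deposited table also holds a linear fold change and p-value per probe set, and its p-values match a pooled-variance test to within 2.88e-12. The annotated table was used, with the brightest probe set of each gene, 2517 probe sets without a symbol and 1 with an unclear one left out. Elektra was compared with WT by lmFit and eBayes in limma 3.58.1 (R 4.3.3), with two-sided p-values adjusted by Benjamini-Hochberg over 30918 genes. The 8 arrays limit the precision. The labels name biological replicates but not the animals behind each, and the series text speaks of 4 mice per genotype where 2 were pooled per sample, so p-values measure the spread between these samples.

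The members, lists and tests were chosen with earlier results of these data known. Named are the members, Slfn2, the surface markers Kit, Ly6a, Cd34, Cd48 and Slamf1, up to 3 genes of smallest p (and, for 3 lists, of highest level) of the myeloid lists, and the 5 genes most like the granule profile; Ltf, Camp, Lcn2, S100a8 and S100a9 were added after their values were seen. Of 139 list entries 138 were measured, 2 of them through RefSeq synonyms. Arrays counted as separate clusters where a gap with at least 2 arrays on each side exceeded 50% of the range. On simulated data of 30918 genes the fit recovered 14.8% of genes changed by 0.5 and 63.6% of those changed by 1 (log2). The changed genes were drawn from those above the median level and raised in Elektra, with independent normal noise. These rates are averages and do not hold for Mpo and Elane. Their SEs were 0.50 and 0.47, against a median SE of 0.146 for genes above the median level. Alternatives were another input table, quantile normalisation, centring, a filter on dim genes, probe set means, a variance trend, array weights, the replicate block, the pooled-variance test and leaving out arrays.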

Additional observations from a re-analysis of the deposited data

Results flagged for a closer look

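Within a genotype's 4 arrays, 1 array lay far from the other 3 for 7 of the 72 gene and genotype groups examined, where chance gives about 1 in 20. Of these, 5 were among the 18 groups of the 9 myeloid genes. The share of all genes flagged by this rule was not computed. The flags of Elane, Ctsg and Ms4a3 fell on the same array, so they do not count as independent. WT replicate 2 stood above the other WT arrays for Elane, at 3.70 against 2.14 to 2.27 (gap over range 0.918), for Ctsg, at 3.30 against 2.31 to 2.47 (0.837), for Ms4a3, at 2.59 against 1.89 to 1.96 (0.899), and for Clec12a, at 1.61 against 1.20 to 1.27 (0.836). WT replicate 3 stood below the others for Cebpb, at 2.91 against 3.16 to 3.21 (0.845), and for Cebpd, at 1.71 against 2.22 to 2.29 (0.875). Elektra replicate 2 stood above the others for Cebpe, at 3.12 against 2.72 to 2.77 (0.876).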

How the results depend on the processing

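No member passed the adjusted test under any of the 18 alternatives, and the members other than Cebpa kept their direction in all of them. On leaving out each array, the log2 change of Cebpa lay between -0.229 and 0.0442, of Lyst between -0.523 and -0.184, of Emb between -0.10 and 0.04, of Cebpd between -0.0345 and 0.207, of Cebpg between -0.000706 and 0.18, of Ddit3 between -0.22 and 0.52, of Ngp between -0.62 and 0.72, of Cd34 between -0.101 and 0.0234 and of Slfn2 between -0.11 and 0.14. The Slfn2 log2 change was -0.0203 with quantile normalisation and -0.0199 with median centring. With Elektra replicates 2 and 3 and WT replicate 4 left out together, which leaves 2 Elektra and 3 WT arrays, Lyst was at 0.0104, Emb at 0.11 and Ngp at 0.76. With dim genes left out, 1062 genes had an unadjusted p under 0.05, against 1702, fewer genes being tested. Single left-out arrays gave 0 to 1 members at that p, Prtn3 without Elektra replicate 1 or WT replicate 4 and Ctsg without WT replicate 2. They gave 7 to 14 regulators higher in Elektra (14 without Elektra replicate 3), 6 to 15 late granule genes (15 without WT replicate 2, 14 without Elektra replicate 2, and 14 without the 3 arrays) and 2 to 4 lymphoid genes (4 without Elektra replicate 3). B cell genes higher in Elektra numbered 3 under median centring. With dim genes left out the median change was -0.207 for lymphoid and 0.00883 for mast cell, basophil and eosinophil markers. With deviations from genotype means 1 pair of members fell under the threshold, Ctsg with Ms4a3 at r = 0.905. That permutation shuffled deviations across genotypes, so it is not counted as a pass. Except for the dim filter, the causes were not tested. Array weights were 0.417 for Elektra replicate 2 and 0.985 to 1.48 for the others, and left the counts of members as they were. Same-numbered arrays of the 2 genotypes had deviations correlated at 0.192, 0.0401, 0.159 and 0.0731, not all above 0.1. Not every array correlated best with its own number, so the numbers were not taken as pairs. The arrays did share structure across genotypes. Replicates 1 and 2 correlated above 0 with replicates 1 and 2 of the other genotype (0.0401 to 0.192). So did replicates 3 and 4 with replicates 3 and 4 (0.0641 to 0.192). Between these 2 sets all correlations were below 0 (-0.218 to -0.0242). The main fit held no term for this structure, and its cause was not tested. With the replicate block 0 genes passed and 1880 had an unadjusted p under 0.05.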
